A study of Mus musculus with 13 samples.

Results

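Fast excitatory signalling in the cortex runs on glutamate, which opens AMPA, NMDA and kainate receptor channels and activates metabotropic receptors coupled to G proteins. TARPs and cornichons are membrane partners that carry AMPA receptors to the surface and set their gating. Below the membrane, Dlg proteins of the PSD-95 family bind the receptors, Dlgap (GKAP/SAPAP) proteins bind Dlg, and Shank proteins bind Dlgap and link the whole to the actin cytoskeleton. Loss of excitatory synapses is a known feature of Alzheimer's disease and of amyloid mouse models.

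The genes described here are those whose symbol begins with Gria, Grin1 to Grin3, Grik, Grid, Grm, Cacng, Cnih, Shank, Dlg or Dlgap and ends in a member number or letter, with at least 10 expected counts summed over all libraries. The rule used names and abundance and no comparison. It matched 51 symbols and kept 50, out of 22984 genes that reach 10 counts and 55536 identifiers in all. Grm6, a metabotropic receptor of retinal bipolar cells, was the symbol that did not reach the minimum. Of the 50, 49 passed the filter on low counts and were tested. Grin3b, an NMDA receptor subunit with a mean of 0.16 TPM (transcript abundance scaled to library size and transcript length), did not pass.

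RNA of frontal cortex was sequenced in 13 libraries, which the titles name as mRNA sequencing, from mice aged 6 or 11 months. Wild type, strain B6SJLF1/J, has 4 libraries at the younger age and 3 at the older, and 5XFAD has 3 at each. 5XFAD mice carry human transgenes with familial Alzheimer mutations, APP among them, driven by the neuron-specific Thy1 promoter, so overexpression of the transgenes and amyloid deposition come together in this model. The labels name no background strain for 5XFAD, no sex, and neither separate nor pooled animals. The p-values therefore measure the spread between libraries, which are numbered here in deposition order.

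The libraries held 23618296 to 26615776 expected counts each. Thy1, the gene whose promoter drives the transgenes, had 543 to 783 CPM (counts scaled to library size with no length correction) in wild type and 2150 to 3250 CPM in 5XFAD. All 10 excitatory neuron markers were detected in every group, with summed levels of 3590 to 7650 CPM over the 13 libraries. Wild-type library 1 at 6 months held choroid plexus RNA, with 2910 CPM of Ttr. Xist and Y-linked counts marked all 3 5XFAD libraries at 6 months as male and the other groups as mixed. Summed striatum markers ranged from 278 to 3010 CPM, and were highest in wild-type libraries 1 and 3 at 6 months and library 3 at 11 months.

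Levels were compared between genes in TPM, which divides by transcript length. Dlg4, which encodes PSD-95, ranked first with a mean of 366 TPM, followed by the cornichon Cnih2 at 214 TPM and the obligatory NMDA subunit Grin1 at 158 TPM. Dlgap3 had 123 TPM, the TARP Cacng7 122 TPM, Dlgap4 119 TPM and Dlgap1 91.8 TPM. The kainate subunit Grik5 had 87.8 TPM and the AMPA subunit Gria1 81.6 TPM. At the low end stood Cacng6 at 0.96 TPM, the muscle calcium channel subunit Cacng1 at 0.56 TPM and Dlgap5, a mitotic spindle gene of the Dlgap family, at 0.25 TPM. Scaffolds and auxiliary proteins thus filled most of the top ranks, and the 2 calcium channel gamma subunits outside the TARPs were near the bottom.

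**Figure D1:**
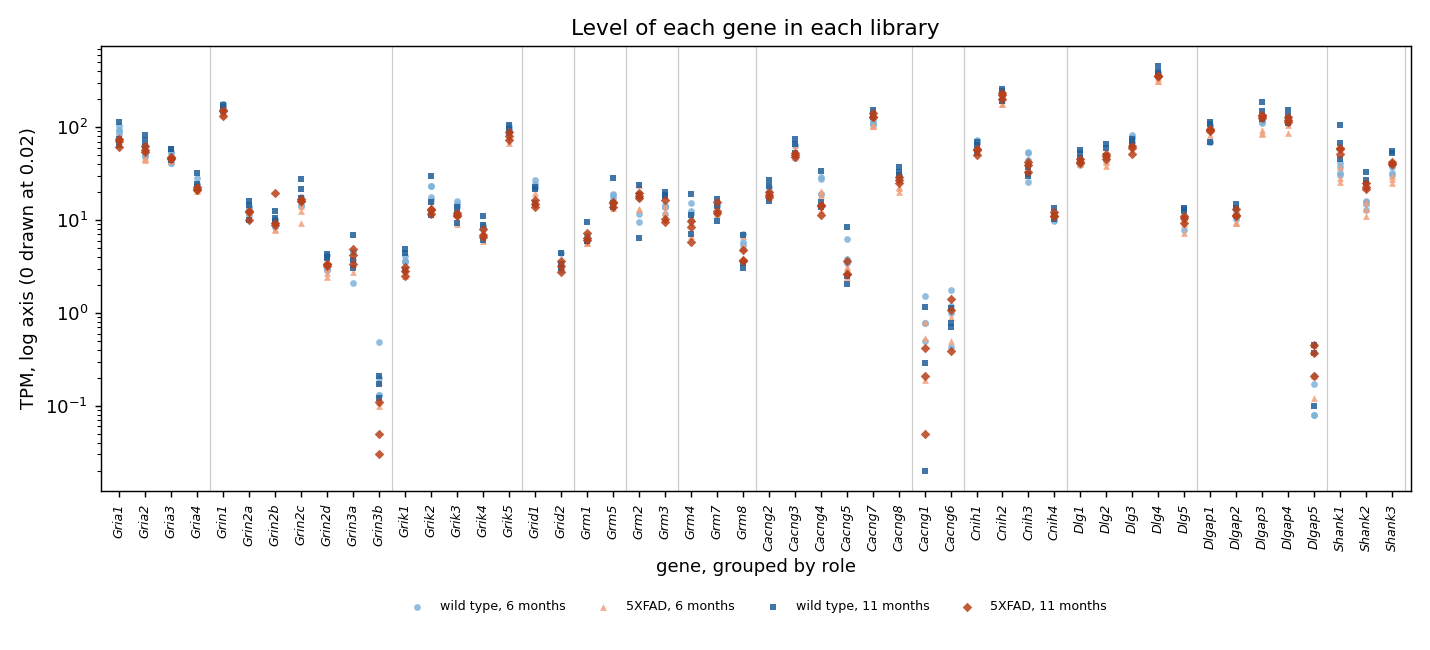
TPM of the 50 genes (log axis, 0 drawn at 0.02), grouped by role from AMPA receptor subunits at the left to Shank scaffolds at the right, with 1 point per library coloured by genotype and age. Dlg4 is the highest at 366 TPM on average, and the libraries of one gene lie much closer together than the genes do.

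Within the AMPA receptors the order was Gria1, Gria2 (57.2 TPM), Gria3 (48.3 TPM) and Gria4 (23.7 TPM). Within the NMDA receptors Grin1 was followed by Grin2c (16.5 TPM), Grin2a (12.9 TPM), Grin2b (10.3 TPM), Grin3a (3.90 TPM) and Grin2d (3.35 TPM). In TPM, Grin2a was above Grin2b in all but 2 libraries, both at 11 months. That order rests on the division by estimated length. In counts with no length scaling the Grin2a share of both was 43.8% to 51.0% at 6 months and 37.5% to 51.5% at 11 months. Among kainate subunits, Grik5 was well above Grik2 (16.8 TPM), Grik3 (12.5 TPM), Grik4 (7.89 TPM) and Grik1 (3.39 TPM). The metabotropic receptors lay between 5.06 TPM for Grm8 and 16.8 TPM for Grm5. The reads of Grin2d are uncertain, because the opposite-strand gene Kdelr1 overlaps it with 1175 counts on average against 317 for Grin2d, and the counting is not stated to use strand.

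The first question was whether 5XFAD differed from wild type at either age. Almost no member did: of 49, 1 was lower and 0 were higher at 6 months, when 1.32% of all 17483 tested genes were called in either direction (edgeR's quasi-likelihood test, Benjamini-Hochberg adjusted p under 0.05). Calls among all genes were mostly upward at that age, 1.3% higher against 0.0172% lower. At 11 months 0 members were called, when 4.31% of all genes were. At an unadjusted p under 0.05, 4 members were lower at 6 months and 0 higher, against 3.48% and 5.61% of all genes. At 11 months 2 were lower at that level, Grik1 and Grm3, and 0 higher, against 6.9% and 8.87% of all genes. DESeq2 also called 0 members at 11 months, against 6.45% of all genes. With limma on log2(TPM + 1) 1 was called, Grm3, against 4.9% of all genes. Averaged over both ages, 1 member was called lower and 0 higher. Among all 17483 genes 256 were called lower and 853 higher, 6.34% in either direction. At an unadjusted p under 0.05, 7 were lower in that average and 0 higher, against 9.47% and 10.1% of all genes. On the log2(TPM + 1) scale limma called 12 of the 49 in that average, against 12.5% of all genes, and the median of all genes on that scale was -0.11.

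The member values leaned downward by small amounts. At 6 months 34 of 49 were below 0 on the log2 scale, against 51.7% of all genes, with a median of -0.06 against -0.01. At 11 months 36 of 49 were below 0, against 54.9% of all genes, with a median of -0.10 against -0.03. The median deviation of the members from their group means varied between libraries of a group with an SD of 0.055 on the log2 scale, averaged over groups. The 11-month median was -0.02 once offsets for transcript length and GC content entered the fit. In bulk tissue, fewer cells of a type and less RNA per cell cannot be told apart. The 8 striatum markers had median log2 fold changes of -0.54 at 6 months and -1.04 at 11 months between the genotypes. The 10 excitatory neuron markers had medians of 0.14 and 0.15, and 0 of either list were called. The part of tissue composition in the downward lean was not tested.

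**Figure D2:**
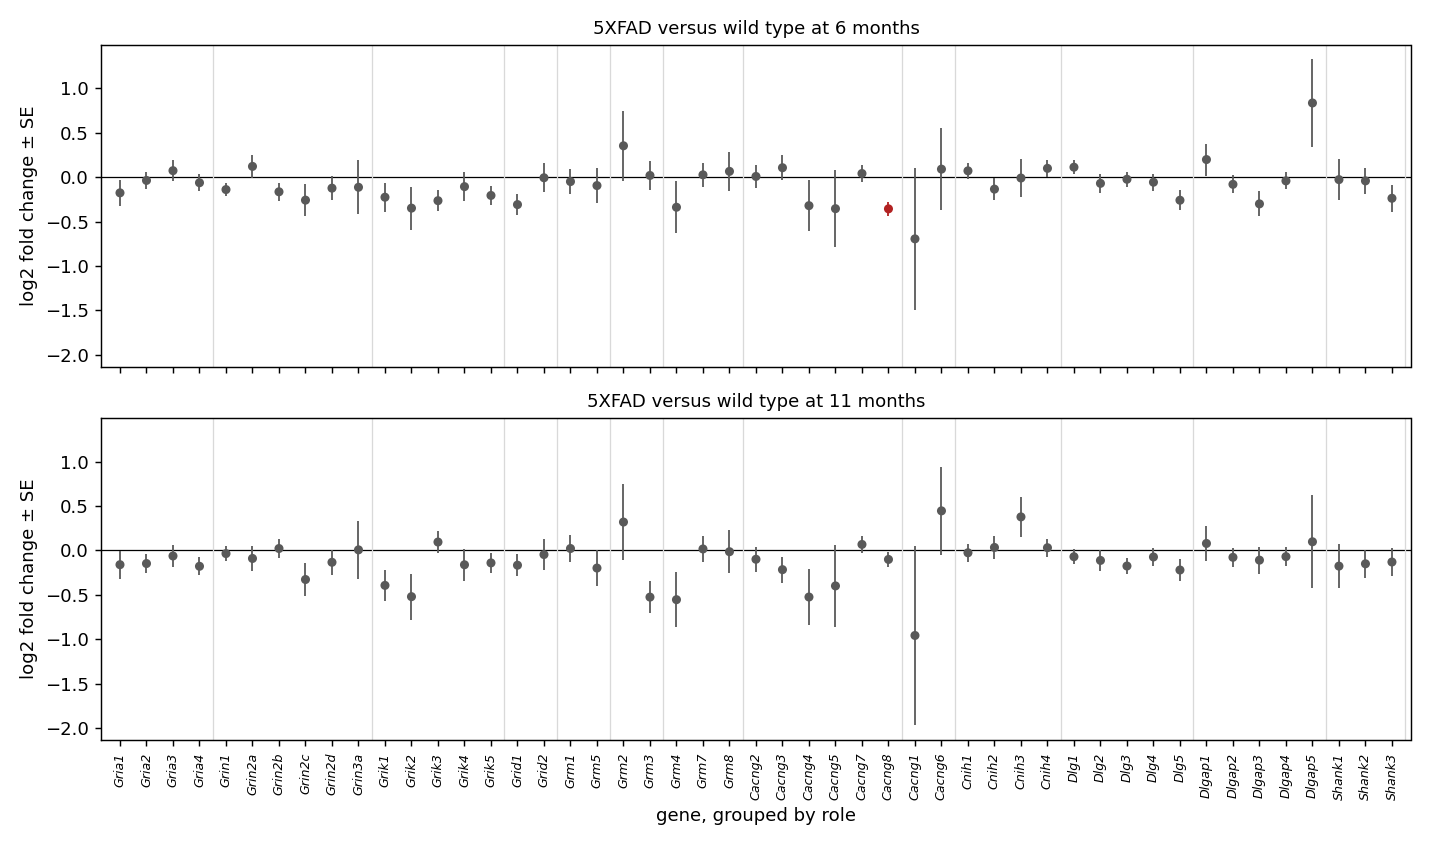
Log2 fold change of 5XFAD over wild type with its standard error for the 49 tested genes, at 6 months above and at 11 months below, grouped by role. The red point is Cacng8 at 6 months (-0.36), the single call; the widest bars belong to the rarely counted Cacng1.

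Cacng8, the TARP also called gamma-8, was that call. The gene lies at chr7:3390683-3415648 on the plus strand (GRCm38), between the TARP gene Cacng7 and Cacng6. In wild type at 6 months it had 25.6, 26.4, 26.0 and 27.7 CPM, and in 5XFAD 19.7, 20.7 and 21.5 CPM. Every 5XFAD library was below every wild-type library. At 11 months wild type had 26.5, 28.9 and 31.2 CPM and 5XFAD had 28.6, 26.6 and 25.5 CPM, and the groups overlapped. The log2 fold change was -0.36 ± 0.08 (SE) at 6 months (edgeR adjusted p = 0.0447) and -0.10 ± 0.08 at 11 months (edgeR adjusted p = 0.628). Averaged over ages it was -0.23 ± 0.06 (edgeR adjusted p = 0.0299). The difference between the ages, 0.25 ± 0.12, did not pass (edgeR adjusted p = 1.0).

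The Cacng8 call at 6 months rested on little margin. It remained in 7 of 22 alternatives and in 2 of 13 fits without 1 library, and its adjusted p lay between 0.00543 and 0.547. Dropping any single library of the 7 at 6 months ended it. The highest p came with offsets for transcript length and GC content, where the log2 fold change was -0.22, and the averaged value there was -0.14 (edgeR adjusted p = 0.314). Cacng8 transcripts are 64.1% GC, and the slope of counts on GC per 10% GC ranged from -0.13 to 0.03 (log2) over the 5XFAD libraries at 6 months and from -0.07 to 0.09 over the wild-type ones. The part of GC content in the result was not tested beyond those offsets. With sex as a covariate the value was -0.39 (edgeR adjusted p = 0.0566). Among all 49 members the 6-month fold change ran against transcript GC with a Spearman correlation of -0.33, and among 17471 genes with -0.18; the genes share libraries and are not independent.

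Transcript GC of the members ran from 41.3%, in Gria2, to 65.6%. Its median over the tested members was 51.7%, against 50.0% over all genes tested. The 100-base coding windows with most GC are printed for Cacng8 and, for contrast, for Gria2, both read from the GENCODE M21 transcripts (GRCm38) and written along the gene, with CG pairs in capitals. The first lies at chr7:3415283-3415382 on the plus strand and is 89% GC. The second lies at chr3:80692308-80692407 on the minus strand and is 55% GC. Over the whole coding sequence Cacng8 has 66.7% GC and Gria2 44.6%.
Cacng8: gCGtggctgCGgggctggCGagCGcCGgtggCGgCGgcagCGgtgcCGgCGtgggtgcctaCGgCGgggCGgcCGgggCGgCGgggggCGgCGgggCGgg
Gria2: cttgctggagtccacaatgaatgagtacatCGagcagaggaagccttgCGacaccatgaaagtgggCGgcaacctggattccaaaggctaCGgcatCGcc

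The other 5 TARPs were not called in either genotype comparison. Cacng7, the neighbour of Cacng8, differed by 0.04 ± 0.09 at 6 months on the log2 scale and by 0.07 ± 0.10 at 11 months. Cacng2 (stargazin) differed by 0.01 ± 0.13 and -0.10 ± 0.14. Cacng3 differed by 0.11 ± 0.14 and -0.22 ± 0.15. Cacng4 and Cacng5 were below 0 at both ages, with standard errors of 0.29 to 0.46.

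**Figure D3:**
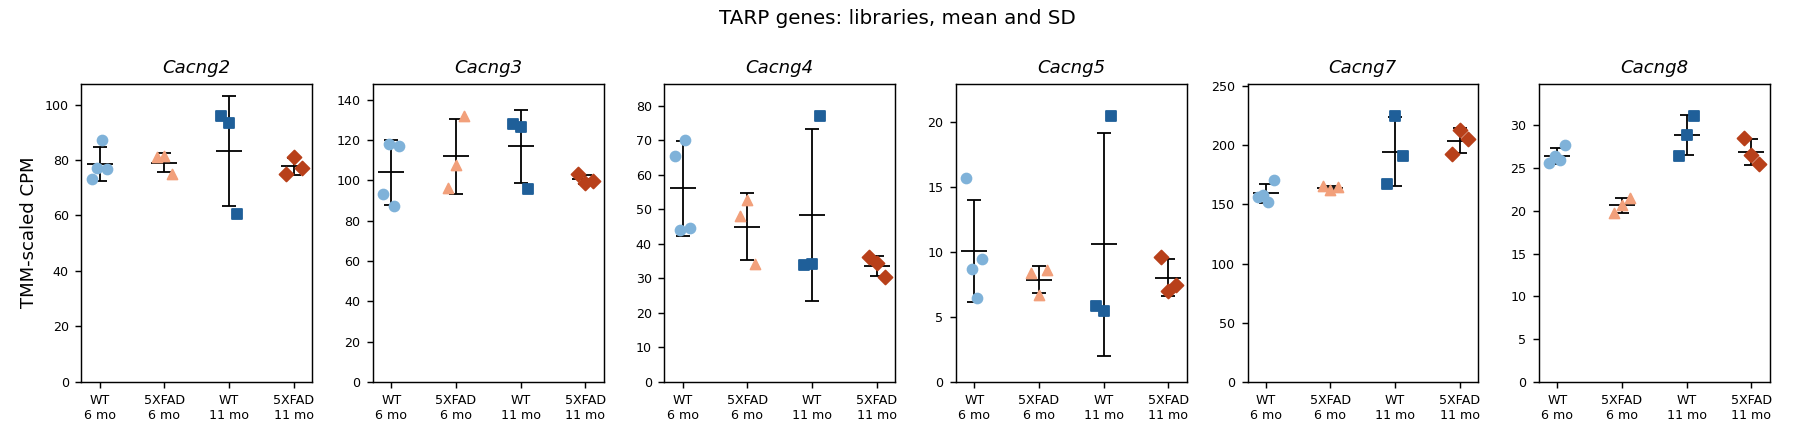
TMM-scaled CPM of the 6 TARP genes in each library (points), with the mean and SD of each group (bars), from an axis starting at 0. The 5XFAD libraries at 6 months lie at 19.7 to 21.5 CPM for Cacng8, below all other libraries, while Cacng4 and Cacng5 are highest in wild-type library 3 at 11 months.

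Cacng4 and a few receptors varied between libraries in the way that striatum markers did. Wild-type Cacng4 had 65.6, 44.1, 70.0 and 44.5 CPM at 6 months and 33.9, 34.2 and 77.2 CPM at 11 months. In the same libraries the summed striatum markers were 2116, 1297, 3007 and 1224 CPM, and 472, 278 and 2380 CPM. The same 3 wild-type libraries were the highest in both.
Grik2, a kainate subunit, had 74.4, 58.8, 76.6 and 55.8 CPM in wild type at 6 months and 48.3, 38.8 and 94.2 CPM at 11 months. Dlgap1 ran the other way, with 248, 371, 251 and 372 CPM at 6 months and 376, 403 and 243 CPM at 11 months. In 5XFAD the striatum markers were 1554, 1771 and 569 CPM at 6 months and 676, 750 and 293 CPM at 11 months, with Cacng4 at 48.2, 52.6 and 34.0 CPM and then 36.1, 34.4 and 30.4 CPM. At both ages library 3 was the lowest in both measures. The part of tissue composition in the downward values of Cacng4 (-0.53 ± 0.31 at 11 months) and Grik2 (-0.52 ± 0.26) was not tested; neither was called. Grm4, a presynaptic metabotropic receptor, was likewise highest in wild-type library 3 at 11 months, at 49.8 CPM against 26.5 and 18.6.

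AMPA receptor subunits showed no genotype call. Gria1 had 387, 353, 319 and 340 CPM in wild type and 328, 308 and 293 CPM in 5XFAD at 6 months. At 11 months it had 260, 253 and 420 CPM in wild type and 296, 282 and 257 CPM in 5XFAD. The groups overlapped at both ages, and the log2 fold changes were -0.18 ± 0.15 and -0.16 ± 0.16. Gria2, Gria3 and Gria4 lay between -0.18 and 0.07 at both ages.

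Grin1, the subunit every NMDA receptor contains, had 460, 463, 494 and 489 CPM in wild type and 408, 438 and 452 CPM in 5XFAD at 6 months. Those libraries did not overlap, but the difference of -0.14 ± 0.08 was not called (edgeR adjusted p = 0.66). At 11 months the values were 440, 468 and 396 CPM against 429, 437 and 406 CPM, which overlapped. At 6 months 5 members were lower in every 5XFAD library, namely Cacng8, Dlgap3, Grin1, Grid1 and Grik5, and 0 were higher in every one; among all genes 5.07% were lower and 6.97% higher without overlap. At 11 months 0 were lower without overlap (8.76% of all genes) and 1, the cornichon Cnih3, was higher (10.4% of all genes).

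Grik5, which needs a partner subunit to form a kainate receptor, had 240, 221, 254 and 229 CPM in wild type and 185, 212 and 217 CPM in 5XFAD at 6 months. The 11-month values were 199, 264 and 234 CPM and 226, 191 and 215 CPM. The change was -0.20 ± 0.10 at 6 months and -0.14 ± 0.11 at 11 months, and neither passed. All 5 kainate subunits were below 0 at 6 months, from -0.35 to -0.11, and none was called. At 11 months Grik1 stood at -0.39 ± 0.17 (edgeR adjusted p = 0.28); it was called without wild-type library 2 at 11 months.

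Grid1, a delta receptor that binds cerebellins across the synapse, had 58.1, 54.5, 46.1 and 54.2 CPM in wild type and 42.9, 42.2 and 43.8 CPM in 5XFAD at 6 months. At 11 months the values were 43.4, 44.8 and 57.8 CPM and 38.4, 49.3 and 42.2 CPM. The 6-month groups did not overlap, and the log2 fold change of -0.31 ± 0.12 did not pass (edgeR adjusted p = 0.39).

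Of the metabotropic receptors, the group I receptor Grm5, which sits at the edge of the postsynaptic density, had 104, 105, 87.4 and 93.9 CPM in wild type and 98.9, 91.9 and 83.7 CPM in 5XFAD at 6 months. At 11 months it had 71.8, 82.8 and 150 CPM in wild type and 90.8, 89.2 and 85.4 CPM in 5XFAD. The 150 CPM came from the 11-month wild-type library highest in striatum markers. Among the 6-month wild-type libraries, library 3 was highest in those markers and lowest in Grm5. The groups overlapped at both ages. Grm2, a presynaptic group II receptor, had 37.7, 56.1, 31.2 and 62.5 CPM against 47.6, 46.2 and 85.8 CPM at 6 months, and 71.9, 61.7 and 20.2 CPM against 66.4, 58.9 and 66.7 CPM at 11 months. This was the widest spread of any member above 5 TPM, with a pooled within-group SD of 0.60 on the log2 scale.
Grm7, a presynaptic group III receptor, had 32.8, 36.9, 27.5 and 33.3 CPM against 33.1, 33.4 and 33.3 CPM at 6 months. In the older mice it had 32.1, 27.4 and 43.4 CPM against 37.3, 31.8 and 34.9 CPM, and its changes of 0.03 ± 0.14 and 0.02 ± 0.14 stayed within that spread. Grm3, which astrocytes also express, had 34.4, 43.0 and 37.3 CPM in wild type and 20.4, 35.5 and 23.7 CPM in 5XFAD at 11 months. Its log2 fold change was -0.53 ± 0.18 (edgeR adjusted p = 0.14), and it was called without 5XFAD library 2 at 11 months. At 6 months it stood at 0.02 ± 0.17.

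Cnih2, the main cornichon of these libraries, had 193, 178, 158 and 183 CPM in wild type and 156, 154 and 176 CPM in 5XFAD at 6 months. The 11-month values were 142, 206 and 201 CPM and 195, 169 and 196 CPM, and the groups overlapped at both ages. The rarely counted Cacng6 had 0.90, 1.06, 0.54 and 1.68 CPM against 0.60, 1.10 and 1.63 CPM at 6 months, and 0.68, 1.05 and 0.87 CPM against 1.86, 0.52 and 1.16 CPM at 11 months. These few counts overlapped throughout.

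Dlg4 had 894, 861, 781 and 856 CPM in wild type and 797, 787 and 863 CPM in 5XFAD at 6 months. At 11 months it had 819, 1038 and 817 CPM in wild type and 845, 817 and 878 CPM in 5XFAD. The groups overlapped, and the log2 fold changes were -0.06 ± 0.10 and -0.07 ± 0.10. Dlg1 (SAP97), Dlg2 (PSD-93), Dlg3 (SAP102) and Dlg5 were not called in either genotype comparison.

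The second question was how the genes differed between 6 and 11 months within a genotype. The Shank scaffolds took the wild-type calls: all 3 were called higher at 11 months in wild type, the only members called there, against 3.71% of all genes in either direction and 2.42% higher. In 5XFAD 4 members were called higher and 0 lower, namely Shank2, Shank3, Dlgap3 and Cacng8, against 7.23% of all genes in either direction, 4.84% higher and 2.39% lower. The member median was 0.09 in wild type (all genes 0.02) and 0.03 in 5XFAD (all genes 0.00). Any difference of cohort or preparation between the 6- and 11-month libraries cannot be told apart from age. Sex also differed between the 5XFAD ages, with all 6-month libraries marked male and libraries 1 and 3 at 11 months marked female. With sex as a covariate 5.04% of all genes were called with age in 5XFAD, and none of the 4 member values changed sign. That fit is among the 22 alternatives counted below, and which of the 4 stayed called in it alone is not given here. The part of sex in the 5XFAD age calls was not tested beyond that fit.

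Shank1 (chr7:44310253-44360572, plus strand, GRCm38), a scaffold found in neurons, had 198, 241, 184 and 228 CPM in wild type at 6 months and 375, 629 and 264 CPM at 11 months. In 5XFAD it had 182, 192 and 252 CPM and then 338, 390 and 394 CPM. The ages did not overlap in either genotype. The log2 fold change with age was 0.99 ± 0.23 in wild type (edgeR adjusted p = 0.0405) and 0.84 ± 0.25 in 5XFAD (edgeR adjusted p = 0.0595), so the second missed the threshold.

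Shank2 (chr7:144001928-144424494, plus strand) had 88.1, 86.2, 70.6 and 80.5 CPM in wild type at 6 months and 134, 186 and 129 CPM at 11 months. In 5XFAD it had 66.0, 77.6 and 93.6 CPM and then 122, 129 and 154 CPM. No 11-month library fell into the 6-month range. The log2 fold change was 0.88 ± 0.15 in wild type (edgeR adjusted p = 0.0173) and 0.77 ± 0.16 in 5XFAD (edgeR adjusted p = 0.0149).

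Shank3 (chr15:89499623-89560261, plus strand), whose human counterpart is mutated in Phelan-McDermid syndrome, had 150, 132, 161 and 126 CPM in wild type at 6 months and 152, 263 and 230 CPM at 11 months. In 5XFAD it had 113, 129 and 120 CPM and then 191, 194 and 203 CPM. The wild-type ages overlapped through library 1 at 11 months, and the 5XFAD ages did not. The log2 fold change was 0.60 ± 0.15 in wild type (edgeR adjusted p = 0.0431) and 0.70 ± 0.16 in 5XFAD (edgeR adjusted p = 0.022).

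Dlgap3 (chr4:127169204-127237022, plus strand), the SAPAP3 scaffold between Dlg and Shank, had 248, 262 and 242 CPM in 5XFAD at 6 months and 349, 353 and 388 CPM at 11 months. In wild type it had 310, 293, 345 and 287 CPM and then 293, 508 and 375 CPM. The ages were separate in 5XFAD and overlapped in wild type. The log2 fold change was 0.53 ± 0.15 in 5XFAD (edgeR adjusted p = 0.0492) and 0.34 ± 0.14 in wild type (edgeR adjusted p = 0.159). Cacng8 changed by 0.38 ± 0.09 with age in 5XFAD (edgeR adjusted p = 0.0202), the same 6-month 5XFAD libraries that were low against wild type.

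**Figure D4:**
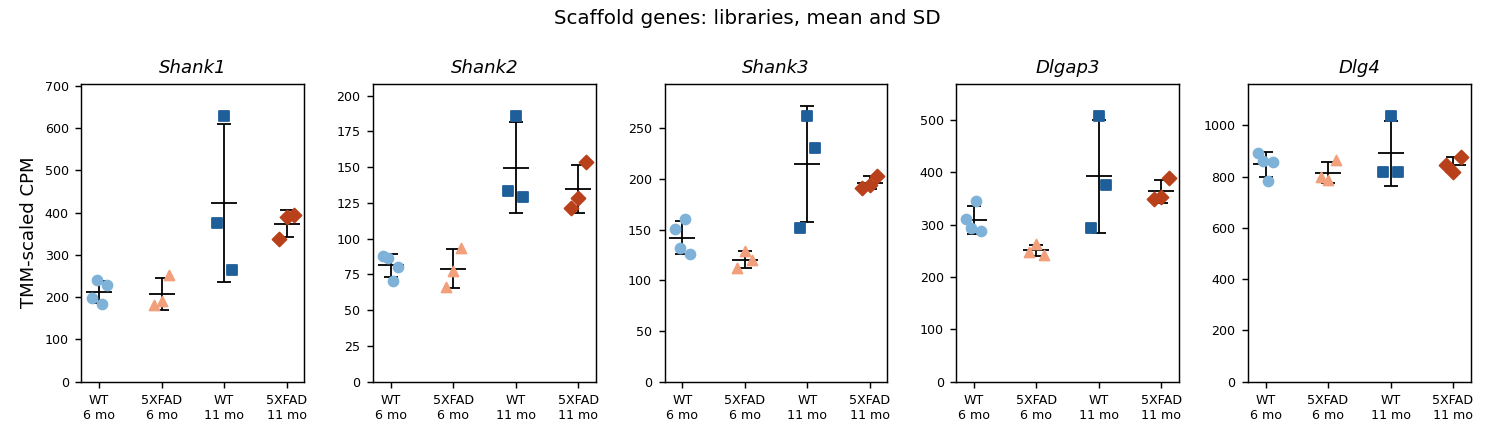
TMM-scaled CPM of Shank1, Shank2, Shank3, Dlgap3 and Dlg4 in each library (points), with the mean and SD of each group (bars), from an axis starting at 0. Shank1 and Shank2 are higher in every 11-month library than in any 6-month library, while the ages overlap for Dlg4.

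These age calls differed in how they held. Shank2 was still called in 18 of 22 alternatives in wild type and in 19 of 22 in 5XFAD. In wild type, Shank1 and Shank3 were each still called in 5 of 22, and without library 2 at 11 months, their highest, Shank1 stood at 0.59 (adjusted p = 0.15) and Shank3 at 0.43 (adjusted p = 0.198). In 5XFAD, Shank3 was still called in 17 of 22, Cacng8 in 16 of 22 and Dlgap3 in 10 of 22. None of these changed sign in any alternative run.

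Length slopes and the summed markers of several cell types moved along with age in these libraries. The slope of counts on transcript length, in log2 per doubling, was -0.08 to 0.01 at 6 months and 0.00 to 0.11 at 11 months. With length offsets, Shank1, Shank2 and Shank3 in wild type had log2 fold changes of 0.83, 0.72 and 0.45 (edgeR adjusted p = 0.118, 0.0638 and 0.133), so none was called. With length and GC offsets together, Shank2 was called in wild type. In 5XFAD, Shank2 and Shank3 stayed called with length offsets (0.66 and 0.60, edgeR adjusted p = 0.0404 and 0.0384) and with both offsets (0.61 and 0.52, edgeR adjusted p = 0.0345 and 0.033). The effective length that RSEM estimated for Shank3 was 5435 to 5709 bases at 6 months and 5574 to 6245 at 11 months.
Summed vascular markers were 218 to 246 CPM in wild type and 206 to 215 CPM in 5XFAD at 6 months, and 281 to 457 CPM and 286 to 343 CPM at 11 months. Of 8 vascular markers 4 were called higher with age in wild type and 6 in 5XFAD. Summed excitatory neuron markers were 4434 to 5455 CPM in wild type at 6 months and 5367, 7651 and 3594 CPM at 11 months, and in 5XFAD 5088 to 5836 CPM and then 6046 to 6461 CPM. Wild-type library 2 at 11 months, the highest for Shank1, Shank2 and Shank3, was the highest in that sum too. Of these 10 markers 0 were called with age in the edgeR test, with medians of -0.12 and 0.01. Astrocyte sums were 2836 to 2922 CPM and then 3269 to 5344 CPM in wild type, and 3401 to 3775 CPM and then 5184 to 6226 CPM in 5XFAD. Microglia sums were 368 to 398 CPM and then 391 to 673 CPM in wild type, and 822 to 945 CPM and then 1529 to 2032 CPM in 5XFAD. Of 8 astrocyte markers 1 was called higher with age in wild type and 4 in 5XFAD, and of 10 microglia markers 0 and 8. Of 8 striatum markers 0 were called with age, with medians of -0.89 in wild type and -1.26 in 5XFAD. The part of any of these in the Shank values was not tested beyond the offsets.

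The called scaffolds have GC-rich transcripts, as other members do; the rule did not use GC. Transcript GC was 62.5% for Shank1, 56.0% for Shank2, 62.1% for Shank3 and 64.5% for Dlgap3, and the median was 51.7% over members and 50.0% over all genes tested. Members not called with age reached the same range, among them Grin2d (65.6%), Cnih2 (61.8%), Grin2c (61.6%) and Grik5 (60.8%). Over the coding sequence alone GC was 63.6% for Shank1, 58.9% for Shank2, 64.6% for Shank3 and 64.8% for Dlgap3. The age change in 5XFAD ran with transcript GC at a Spearman correlation of 0.45 over 49 members and 0.12 over 17471 genes, and in wild type at 0.20 and 0.01; both are given as a description. The most GC-rich 100 coding bases of each follow, with CG pairs in capitals, read from GENCODE M21 transcripts (GRCm38, all on the plus strand). They lie at chr7:44352419-44352518 (79% GC), chr7:144410974-144411073 (76% GC), chr15:89499642-89499741 (89% GC) and chr4:127214791-127214890 (79% GC).
Shank1: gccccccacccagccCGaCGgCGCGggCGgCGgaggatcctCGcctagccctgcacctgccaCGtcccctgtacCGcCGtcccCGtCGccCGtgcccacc
Shank2: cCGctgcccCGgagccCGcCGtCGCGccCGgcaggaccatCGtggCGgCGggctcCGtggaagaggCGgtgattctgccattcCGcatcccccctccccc
Shank3: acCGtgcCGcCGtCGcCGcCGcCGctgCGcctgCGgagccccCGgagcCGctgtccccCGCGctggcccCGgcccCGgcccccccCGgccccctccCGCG
Dlgap3: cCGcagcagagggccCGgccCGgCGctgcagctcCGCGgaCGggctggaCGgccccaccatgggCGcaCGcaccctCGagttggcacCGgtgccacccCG

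Among the Shank genes an upstream window was available for Shank3 alone, so nothing shared between their promoters can be read here. The promoter of Shank3 is shown. The 250 bases before its RefSeq start, chr15:89499358-89499607 on the plus strand (RefSeq, GRCm38.p6), are 82.4% GC and hold 31 CG pairs. Capitals mark 4 matches to the GC box GGGCGG, all here as its reverse complement.
Shank3 upstream: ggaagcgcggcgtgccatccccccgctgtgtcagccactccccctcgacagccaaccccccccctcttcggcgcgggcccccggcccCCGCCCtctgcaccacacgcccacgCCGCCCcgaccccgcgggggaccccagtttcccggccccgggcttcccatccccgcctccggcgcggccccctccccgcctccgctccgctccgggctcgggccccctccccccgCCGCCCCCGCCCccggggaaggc
On either strand, 20 of 46 upstream windows of the 33 members matched by symbol hold that motif, against 32.7% of 32851 windows of all genes. The cyclic AMP response element TGACGTCA was found in 0 of the 46, against 1.5% of all windows, a share too low for so few windows to be informative. Its core TGACG was found in 4 of the 46, against 17.8% of all windows. The E-box CACGTG was found in 5 of the 46, against 6.0%.

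**Figure D5:**
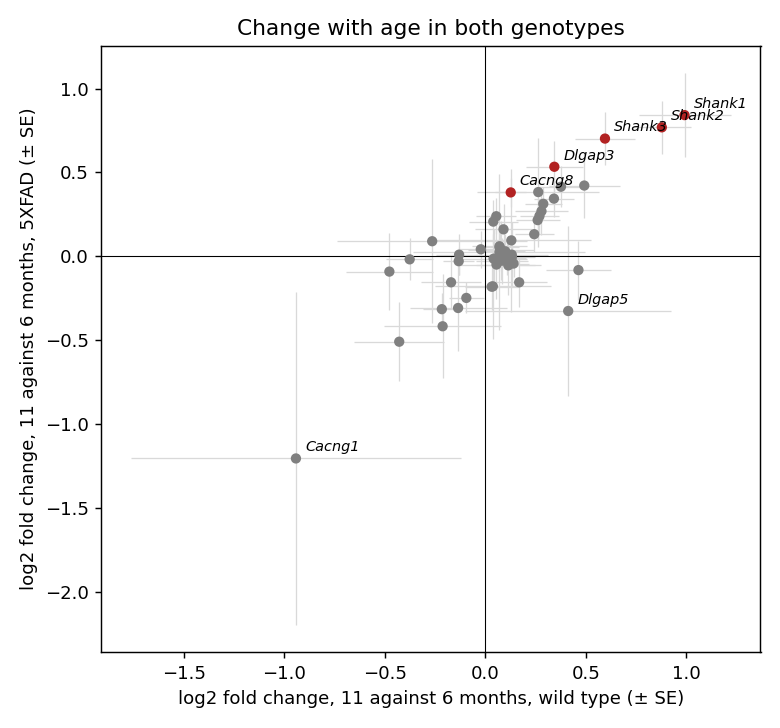
Log2 fold change from 6 to 11 months in wild type (horizontal) and in 5XFAD (vertical) for the 49 tested genes, with standard errors, and in red those called in either genotype. Shank1, Shank2 and Shank3 lie farthest to the upper right, and Cacng1 lies low with the widest bars.

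The remaining members moved little with age or did not pass. Across 49 members the age changes of wild type and 5XFAD, which share no library, had a Spearman correlation of 0.66, and across all genes tested 0.60. Values close to the threshold in both genotypes were those of Dlg5 (0.38 ± 0.11 in wild type and 0.41 ± 0.12 in 5XFAD), Dlgap2 (0.34 ± 0.10 and 0.34 ± 0.11) and Cacng7 (0.29 ± 0.09 and 0.31 ± 0.10), with edgeR adjusted p from 0.056 to 0.083. Downward values included those of the cornichon Cnih1 (-0.22 ± 0.09 and -0.32 ± 0.10) and of Grm8 (-0.43 ± 0.22 and -0.51 ± 0.24). Others were Grik3 (-0.38 ± 0.12) and Cnih3 (-0.48 ± 0.22) in wild type and Dlg3 (-0.25 ± 0.09) in 5XFAD. Of the 49 members 36 were above 0 and 13 below in wild type, and 27 and 22 in 5XFAD. In 5XFAD 15 members were higher and 5 lower at 11 months without overlap of libraries, against 18.4% and 17.3% of all genes. In wild type 5 were higher and 2 lower, against 9.11% and 7.96%. No member's genotype effect differed between the ages in the edgeR test, where 0.00572% of all genes were called; at an unadjusted p under 0.05 there were 2, Cacng8 and Grm3, against 3.96% of all genes.

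Subunit shares compare the mRNA of related genes within a library and do not measure the make-up of receptor proteins. Gria2, whose edited subunit makes AMPA receptors impermeable to calcium, was 24.7% ± 1.2 (SD, n = 4) of AMPA subunit TPM in wild type and 24.2% ± 0.67 (SD, n = 3) in 5XFAD at 6 months. At 11 months it was 30.6% ± 2.7 (SD, n = 3) and 29.6% ± 1.4 (SD, n = 3). The genotypes differed by -0.71 percentage points (exact permutation of genotype within age, 700 arrangements, 2-sided p = 0.47, adjusted over 3 shares 0.779), and by 0.26 points, the opposite direction, in counts with no length scaling. By age the shares did not overlap, at 23.2% to 26.2% in the 6-month libraries and 27.7% to 33.2% in the 11-month ones. That gap of 5.66 points gave p = 0.00143 (exact permutation of age within genotype, 2-sided, adjusted 0.00429), the smallest the arrangements allow. This age test was added after the values, already separate by age, were seen, so its p-value adds no support of its own. The effective length that RSEM estimated for Gria2 was 6201 to 6955 bases at 6 months and 5515 to 6276 at 11 months. The gap in counts with no length scaling was 3.79 points. In counts with no length scaling the share was 27.2% to 31.5% at 6 months and 32.6% to 35.6% at 11 months, again with no overlap, while Gria2 itself changed by 0.24 ± 0.10 in wild type (edgeR adjusted p = 0.15) and 0.13 ± 0.10 in 5XFAD.

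Grin2a and Grin2b encode the NMDA subunits whose ratio rises as cortex matures. The Grin2a share of their TPM was 58.1% ± 2.1 (SD, n = 4) in wild type and 60.2% ± 2.2 (SD, n = 3) in 5XFAD at 6 months, and 55.1% ± 9.1 and 49.7% ± 9.3 (SD, n = 3 each) at 11 months. The genotype difference of -1.6 points did not pass (exact permutation, 2-sided p = 0.641, adjusted 0.779) and was 1.59 points in counts with no length scaling. The lowest share, 39.2% in 5XFAD library 2 at 11 months, came with an estimated Grin2b length of 11454 bases, against 18914 to 23826 in the other libraries. Dlg4 made up 69.0% ± 1.2 (SD, n = 4), 67.3% ± 1.4, 69.2% ± 2.9 and 70.4% ± 1.4 (SD, n = 3 each) of Dlg1 to Dlg4 TPM, in the order wild type and 5XFAD at 6 months, then wild type and 5XFAD at 11 months. Its genotype difference was -0.29 points (exact permutation, 2-sided p = 0.779).

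The other lists of excitatory synapse genes were read against the same shares of all genes (1.32% called at 6 months, 4.31% at 11 months and 6.34% over both). Of 35 further postsynaptic density genes, 0 were called at 6 months and 1 at 11 months, Tanc2, a scaffold that binds PSD-95 and Shank, at -0.36 ± 0.08 (edgeR adjusted p = 0.0119). At 6 months the smallest p of that list belonged to the actin-binding Dbn1, at -0.27 ± 0.10 (edgeR adjusted p = 0.384). Of 24 other AMPA and kainate receptor partners, 0 were called at either age, and 3 of the 24 over both ages together: Abhd12 at 0.20 ± 0.05, Gripap1 at -0.23 ± 0.06 and the AMPA receptor partner Shisa7 at -0.35 ± 0.10 (edgeR adjusted p = 0.0323, 0.0424 and 0.0464). Of 23 synaptic adhesion genes 0 were called, with the smallest p for Slitrk3 at 6 months (-0.23 ± 0.09, edgeR adjusted p = 0.456), Lrrtm3 at 11 months (-0.57 ± 0.17, edgeR adjusted p = 0.0985) and Ptprs over both ages (-0.23 ± 0.07, edgeR adjusted p = 0.0859). Of 11 genes of glutamate release and uptake 0 were called, with the smallest p for Glul at 6 months (0.20 ± 0.14, edgeR adjusted p = 0.738) and Slc1a4 at 11 months (0.50 ± 0.15, edgeR adjusted p = 0.0928) and over both ages (0.32 ± 0.10, edgeR adjusted p = 0.101). In the same libraries 7 of 10 microglia markers were called higher in 5XFAD at 6 months and 9 of 10 at 11 months.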

How the data were processed

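Frontal cortex RNA was sequenced on an Illumina NovaSeq 6000 and, per the submitters' processing notes, processed with STAR 2.7.1, RSEM and GRCm38; no source used here gives the annotation or strand setting. Per the submitters' processing notes and the file headers, the authors deposited the expected count, TPM and effective length that RSEM estimated per gene and library. All 55536 identifiers matched GENCODE M21. Expected counts were rounded (7.24% to 7.71% of values were not whole), filtered (filterByExpr, minimum count 10, minimum total 15) and TMM-scaled, and 17483 genes were fitted in 1 model of 4 group means with edgeR 4.0.16 (robust quasi-likelihood, R 4.3.3, 9 residual degrees of freedom, threshold 0.05 after Benjamini-Hochberg adjustment). CPM values are TMM-scaled. Fold changes are log2 with standard errors taken from the test statistic. The fit was tested on simulated data with 200 changed genes. DESeq2 1.42.0, limma 3.58.1 on log2(TPM + 1), RLE scaling, no low-count filter, length offsets, sex as a covariate, the compared groups alone and leaving out each library were tried. Fits with length and GC offsets or voom quality weights, and shares of counts, were added after the data were seen. Members, role groups and gene lists were chosen with earlier results of these data known. Values in every library are given for members called in any of 6 comparisons and, where a role has none, for its member with the highest TPM; other members described by library were chosen after their values were seen. The value of 1 gene of the further postsynaptic list is not reported here. No explanation of any difference was tested.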

Additional observations from a re-analysis of the deposited data

How the results depend on the processing

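No paired analysis was possible because the labels give each library its own number, so no 2 groups share one. At 6 months 0 members were called for genotype with no low-count filter (1.07% of all genes). The same held with sex as a covariate (0.995%), with the compared groups alone (1.55%), and with length and GC offsets (1.28%). Leaving out 1 library gave 0 to 1. At 11 months limma on log2(TPM + 1) called 1, against 4.9% of all genes (0 to 1 without 1 library). Over both ages limma on log2(TPM + 1) called 12 (12.5% of all genes). No filter and the length and GC offsets called 0 each there, against 4.58% and 6.01% of all genes (0 to 4 without 1 library). With age in wild type DESeq2 called 7 (10.5% of all genes), length offsets 0 (0.343%), the compared groups alone 0 (0.00592%), and sex as a covariate, length and GC offsets, and voom weights 1 each (1.97%, 0.486% and 0.932%). Leaving out 1 library gave 0 to 11: 0 without wild-type library 2 at 11 months (0.0112% of all genes) or library 4 at 6 months (0.0%), and 11 without library 1 at 11 months (10.7%). With age in 5XFAD DESeq2 called 9 (11.8% of all genes), the compared groups alone 11 (15.5%) and voom weights 14 (22.7%). Leaving out 1 library gave 0 to 8: 0 without 5XFAD libraries 1 or 2 at 6 months (0.984% and 1.72%) or library 3 at 11 months (0.544%), 2 without library 3 at 6 months or library 1 at 11 months (2.9% and 3.14%), and 8 without wild-type library 2 at 11 months (10.1%). In these age comparisons the settings with more member calls had more calls among all genes too. The genotype difference between ages gave 0 without any 1 library.

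The member median was -0.18 at 6 months, -0.22 at 11 months and -0.21 over both with limma on TPM, where the median of all genes itself lay at -0.11, -0.12 and -0.11. Length offsets gave -0.045 at 11 months, and length and GC offsets gave -0.024 at 11 months and -0.002 over both. Without 1 library the medians ranged from -0.134 to -0.034, from -0.15 to -0.06 and from -0.12 to -0.06. The genotype differences of the shares changed sign in rounded counts, to 1.59 (Grin2a), 0.26 (Gria2) and 0.05 points (Dlg4). Without 1 library they ranged from -4.17 to 1.03, from -1.42 to -0.06 and from -0.84 to 0.52 points; the Grin2a value was 0.21 without wild-type library 1 and 1.03 without 5XFAD library 2 at 11 months, and the Dlg4 value 0.01 without wild-type library 1 at 6 months, 0.52 without wild-type library 2 and 0.11 without 5XFAD library 2 at 11 months. The cause was not tested for any of these. With 3 or 4 libraries a group, small differences could not be resolved.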

Other observations

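With age, 3.71% of all genes were called in wild type and 7.23% in 5XFAD, beside which the further postsynaptic genes are read. Of the 35 postsynaptic density genes outside the families above, Iqsec3, an exchange factor for Arf proteins, was called higher at 11 months in wild type, at 0.65 ± 0.12 on the log2 scale (edgeR adjusted p = 0.0223). In 5XFAD 3 were called higher and 2 lower. The higher ones included Iqsec3 at 0.52 ± 0.13 (edgeR adjusted p = 0.0295) and the scaffold Tanc1 at 0.51 ± 0.12 (edgeR adjusted p = 0.0243). The lower ones were the activity-induced Arc at -1.81 ± 0.34 (edgeR adjusted p = 0.0142) and the PDZ adaptor Lin7b at -0.60 ± 0.14 (edgeR adjusted p = 0.0246). Of the adhesion genes, Slitrk3 was called higher with age in 5XFAD at 0.36 ± 0.10 (edgeR adjusted p = 0.0422). Of the release and uptake genes, the glutamine synthetase Glul was called higher in wild type at 0.64 ± 0.14 (edgeR adjusted p = 0.0318) and the astrocyte transporter Slc1a3 in 5XFAD at 0.83 ± 0.20 (edgeR adjusted p = 0.0267). Summed astrocyte markers were 2840 to 2920 CPM in wild type at 6 months and 3270 to 5340 CPM at 11 months, and 3400 to 3770 CPM and 5180 to 6230 CPM in 5XFAD. Slc1a3 is itself among the 8 astrocyte markers summed, so that sum is not separate from it. The part of the astrocyte markers in the Glul and Slc1a3 values was not tested.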
